A study of Homo sapiens with 6 samples.

Results

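NF-κB is a family of transcription factor dimers, and the 10 genes described here encode its 5 subunits and 5 proteins of the IκB group that bind them. They were chosen by symbol, as the listed subunit and IκB family genes of Ensembl release 105, from 61541 genes in each count file. The subunit genes were NFKB1, NFKB2, REL, RELA and RELB. The cytoplasmic inhibitor genes were NFKBIA, NFKBIB and NFKBIE, and the nuclear IκB genes were NFKBIZ and BCL3. The measurements came from RCC4, a line of clear cell renal carcinoma cells of human origin. Untreated cells (3 libraries) were set against cells given IFNγ at 1000 U/mL together with TNF at 25 ng/mL for 24 h (3 libraries). Each library came from a separate biological replicate grown in 3 flasks, and native poly(A) RNA was read on nanopores, 1 read for each RNA molecule. The 2 cytokines were never given apart, so their separate contributions cannot be told apart, and a single time was measured.

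In resting cells NF-κB dimers are held in the cytoplasm by IκB proteins. TNF binding to its receptor activates the IκB kinase (IKK), which marks IκBα for destruction and frees dimers such as RELA with p50 to enter the nucleus. NFKB1 and NFKB2 encode the precursors p105 and p100, which hold their partners through an IκB-like tail and are processed to p50 and p52. NFKBIA is itself a known NF-κB target, so that new IκBα closes a negative feedback loop. In the non-canonical branch the kinase NIK, the product of MAP3K14, drives processing of p100 and the release of dimers of RELB with p52. BCL3 and IκBζ, the product of NFKBIZ, act inside the nucleus on p50 or p52 at a subset of target genes.

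The promoter sequences are shown first, since several members are known as NF-κB targets. RefSeq start sites on GRCh38.p14 were at hand for 8 of the 10 genes, as 14 windows of the 250 bases before each start; NFKBIE and RELB were the others. A match to the κB consensus decamer, searched on both strands, lay in 8 of these 14 windows and in 6 of the 8 genes. Over all RefSeq windows of this length 5.21% held a match, and 6.28% of all genes had a match before at least 1 start. The stretch before the NFKBIA start is shown whole because this inhibitor gene had the smallest adjusted p of the 10 genes. It is chr14:35404750-35404999, minus strand, printed 5′ to 3′ with the κB match in capitals.
NFKBIA: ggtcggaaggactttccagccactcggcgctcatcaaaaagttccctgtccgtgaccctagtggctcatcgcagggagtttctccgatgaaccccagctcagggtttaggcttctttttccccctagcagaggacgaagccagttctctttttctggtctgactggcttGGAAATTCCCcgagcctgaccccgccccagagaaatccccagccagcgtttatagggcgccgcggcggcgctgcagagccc

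The matches before the starts of other members are shown with 10 flanking bases on each side, to let their letters be compared. NFKB2 had matches before its starts 2 and 3 and none before its start 1. The stretches are on the plus strand at chr10:102394461-102394490, chr10:102394490-102394519 and chr10:102395674-102395703 for NFKB2, chr4:102501300-102501329 for NFKB1, chr2:60881517-60881546 for REL, chr19:38899931-38899960 for NFKBIB and chr3:101827757-101827786 for NFKBIZ.
NFKB2 start 2, first site: gaaacgtcatGGGAATTCCCccctccgggg
NFKB2 start 2, second site: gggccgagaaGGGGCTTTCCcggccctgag
NFKB2 start 3: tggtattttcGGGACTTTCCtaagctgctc
NFKB1: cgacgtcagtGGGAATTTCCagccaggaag
REL: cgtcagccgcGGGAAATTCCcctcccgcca
NFKBIB: gggcgtggtgGGGAATTTCCcgcagggcgg
NFKBIZ: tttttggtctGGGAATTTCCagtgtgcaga
The same 10 letters, GGGAATTTCC, stand before a start of NFKB1, NFKBIB and NFKBIZ, and on the opposite strand before those of NFKBIA and REL. NFKBIZ had a further match before its start 2, and NFKB2 a further one before its start 3, which are not printed. Matches to the interferon-related motifs were rarer: the GAS motif TTCNNNGAA and the ISRE motif, taken as a pair of GAAA half-sites with 2 free bases between them, both searched on both strands, each lay in 1 of the 14 windows, both in that of RELA. Over all windows they lay in 6.57% and 3.02%. The GAS and ISRE matches lay before start 1 of RELA. Neither RELA window held a κB match, so none overlapped. At the first site of NFKB2 start 2, and before REL and NFKBIB, the κB match overlapped a second one on the other strand, shifted by 1 base. A match describes letters only and is no evidence of binding.

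The libraries held between 3626000 and 4406296 counts, so that 3 counts, the limit that a count of 0 allows, stood for 0.681 to 0.827 CPM (read counts scaled to a common library size, here before TMM scaling; counting error only). All 10 renal carcinoma epithelial markers were measured above the filter, with a summed level of 6807 to 8349 CPM in untreated and 9030 to 12050 CPM in treated libraries. Most of this sum was VIM, which rose from a mean of 4594 to 7279 CPM (adjusted p by edgeR 0.0273). VEGFA also rose, from 21.2 to 62.9 CPM (adjusted p by edgeR 0.00302). PAX8 fell from a mean of 144.8 to 83.8 CPM (adjusted p by edgeR 0.0316), and the other 7 did not pass the test. All 4 endothelial markers, 6 of 9 leukocyte markers (PTPRC and CD3E among them) and 3 of 5 fibroblast markers (COL1A2, DCN and LUM) were at 0 in every library. The summed level of the leukocyte list was 2.95 to 5.99 CPM in untreated and 1.42 to 1.72 CPM in treated libraries. Most of it was CSF1R, which fell from a mean of 4.69 to 1.23 CPM (adjusted p by edgeR 0.0314). The fibroblast list summed to 54.5 to 74.1 CPM in untreated and 27.2 to 48.9 CPM in treated libraries. Of it, PDGFRB fell from a mean of 10.3 to 2.71 CPM (adjusted p by edgeR 0.00491), and COL1A1 had means of 55.6 and 36.1 CPM (adjusted p by edgeR 0.231). The part of these differences in the results below was not tested. In untreated replicate 3, 8 of the 9 tested members were lower than in the mean of the other 2 untreated libraries. The median difference of the 9 was 0.60 on the log2 scale. The share of all genes lower there was not counted, so whether this is particular to the family cannot be told. Without this library 11.5% of all genes tested differed by edgeR at an adjusted p under 0.05, against 8.14% with it. The log2 fold changes of the 9 tested members are therefore given with and without this library.

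Of the 10 genes, 9 passed the filter on low counts, and 6 of these were higher in treated cells: NFKB2, RELA, RELB, NFKBIA, NFKBIE and BCL3. The test was edgeR's quasi-likelihood test over 10067 genes at an adjusted p under 0.05, by which 8.14% of all genes differed, 5.58% higher and 2.55% lower. None of the 9 was lower by this test, at an unadjusted p under 0.05, or in DESeq2 or limma voom. The last 2 called the same 6 genes higher, against 6.48% and 5.55% of all genes higher and 3.14% and 2.34% lower. The 6 rises were alike in size, from 2.56-fold to 3.10-fold. The median log2 fold change of the 9 was 1.36, against -0.03 over all genes tested, and all 9 values were positive, as were 47.4% of all. In 7 of the 9 the treated libraries all exceeded the untreated ones, which held for 13.9% of all genes tested. In either direction the groups did not overlap in 25.9% of all genes. In bulk RNA a change in RNA per cell and a change in the share of cells that carry it cannot be told apart.

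**Figure D1:**
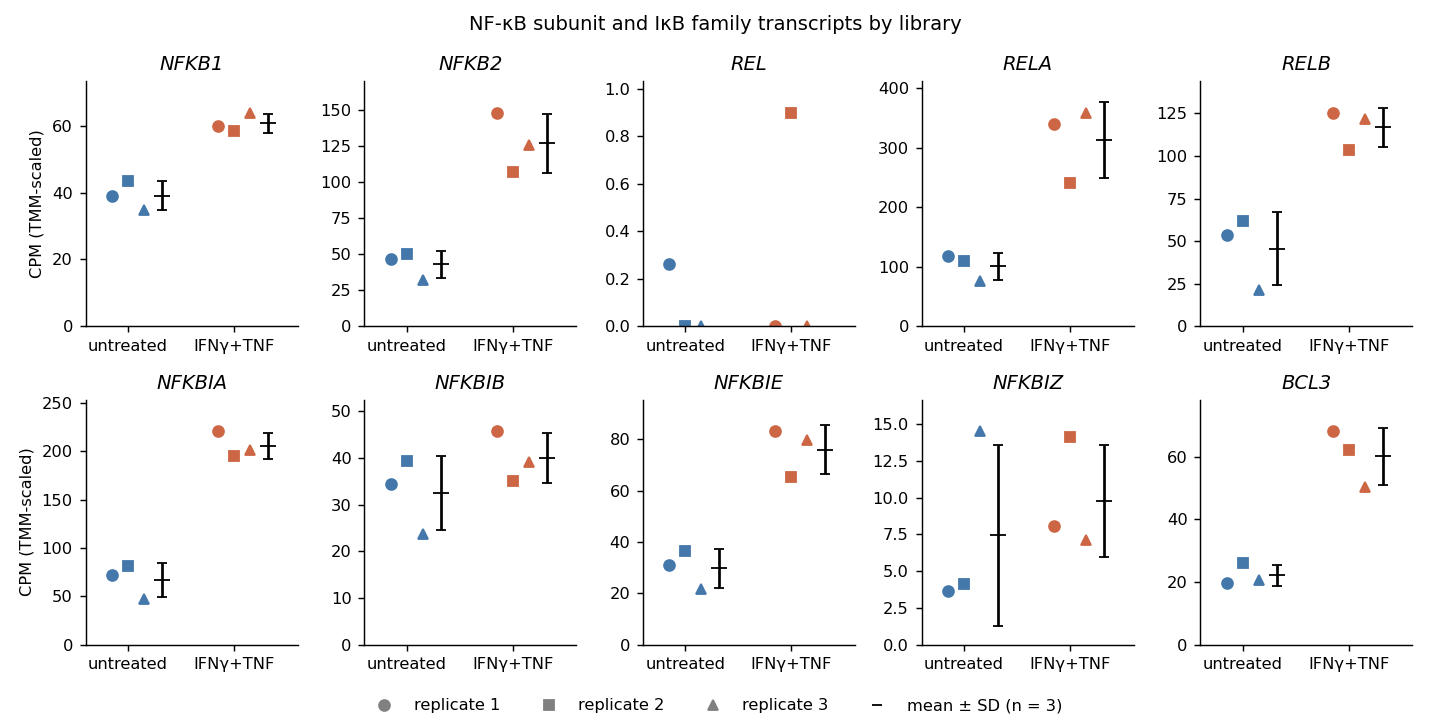
Level of each of the 10 genes in CPM (read counts scaled to a common library size, with TMM; linear axes from 0) in the 3 untreated (blue) and 3 IFNγ+TNF (orange) libraries, with marker shape giving the replicate and black bars the mean ± SD, which is left out for REL. In 7 genes the treated libraries lie above all untreated ones, while NFKBIB, NFKBIZ and REL overlap.

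RELA (ENSG00000173039; chromosome 11, 65653599 to 65663090, minus strand) encodes p65, the subunit that carries the transactivation domain of the main TNF-activated dimer. Its level was 117.8, 109.9 and 75.01 CPM in untreated replicates 1, 2 and 3 and 340.6, 239.9 and 358.5 CPM in treated replicates 1, 2 and 3. All 3 treated libraries lay above all untreated ones, and untreated replicate 3 was the lowest. The means were 100.9 ± 22.8 and 313 ± 63.9 CPM (SD, n = 3 each). The log2 fold change was 1.63 (SE 0.24; adjusted p by edgeR 0.0030). Without untreated replicate 3 it was 1.45 (SE 0.22, adjusted p by edgeR 0.00104).

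NFKB2 (ENSG00000077150; chromosome 10, 102394110 to 102402524, plus strand) encodes p100, the precursor of p52. Its level was 46.6, 49.7 and 31.95 CPM in the untreated libraries and 147.7, 106.9 and 125.2 CPM in the treated ones. The groups did not overlap, and the lowest untreated value was that of replicate 3. The log2 fold change was 1.57 (SE 0.23; adjusted p by edgeR 0.00296). Without untreated replicate 3 it was 1.39 (SE 0.21, adjusted p by edgeR 0.000984).

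RELB (ENSG00000104856; chromosome 19, 45001449 to 45038198, plus strand) encodes the partner of p52 in the non-canonical dimer. It had 53.4, 61.8 and 21.3 CPM in the untreated libraries and 125.3, 103.8 and 121.5 CPM in the treated ones. The treated libraries were close to each other, while untreated replicate 3 lay far below the other untreated libraries. The log2 fold change was 1.36 (SE 0.34; adjusted p by edgeR 0.0429). Without untreated replicate 3 it was 1.01 (SE 0.19; adjusted p by edgeR 0.00485). RELB was the one called member that depended on single libraries. Its edgeR adjusted p was 0.116, 0.0974 and 0.143 without treated replicate 1, 2 or 3 and 0.0543 without untreated replicate 2.

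NFKB1 (ENSG00000109320; chromosome 4, 102501331 to 102617302, plus strand), which encodes p105 and p50, had the smallest difference among the measured subunits. Its level was 39.1, 43.5 and 34.7 CPM in untreated and 60.1, 58.4 and 63.9 CPM in treated libraries. The groups did not overlap, yet the log2 fold change of 0.64 (SE 0.18) had an edgeR adjusted p of 0.0682, short of the threshold (unadjusted 0.00655). Without untreated replicate 3 the log2 fold change was 0.55 (SE 0.195, adjusted p by edgeR 0.0944). NFKB1 passed in the edgeR fit with the replicate number as a block (adjusted p 0.0323), where 9.01% of all genes were called higher. Whether the replicate numbers pair the libraries is not settled.

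REL (ENSG00000162924; chromosome 2, 60881521 to 60931612, plus strand) encodes c-Rel, a subunit best known from lymphoid cells. It had 1, 0 and 0 counts in untreated and 0, 4 and 0 counts in treated libraries, at or near the limit of 3 counts, and was not tested. Exons of ENSG00000267520 on the same strand cover 99.6% of the last 500 exonic bases of REL, and that gene had 0 counts in all 6 libraries. By the counting program's defaults a read that touches both is left uncounted, so the counts of REL do not show whether it was expressed.

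Among the cytoplasmic inhibitors, NFKBIA and NFKBIE rose and NFKBIB did not pass the test. NFKBIA (ENSG00000100906; chromosome 14, 35401513 to 35404749, minus strand) encodes IκBα, the inhibitor that is degraded and resynthesised fastest. It had 71.7, 81.3 and 46.7 CPM in untreated and 220.4, 195.2 and 201 CPM in treated libraries. The treated libraries differed little from each other and all exceeded the highest untreated value. The means were 66.5 ± 17.9 and 205.5 ± 13.2 CPM (SD, n = 3 each). This was a log2 fold change of 1.63 (SE 0.23; adjusted p by edgeR 0.00226). Without untreated replicate 3 it was 1.42 (SE 0.18, adjusted p by edgeR 0.000302).

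NFKBIE (ENSG00000146232; chromosome 6, 44258166 to 44265788, minus strand) encodes IκBε, a slower inhibitor that is also a target of NF-κB. Its level was 31.0, 36.5 and 21.5 CPM in untreated and 83.1, 65.2 and 79.8 CPM in treated libraries, again without overlap. The log2 fold change was 1.36 (SE 0.24; adjusted p by edgeR 0.00734).

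NFKBIB (ENSG00000104825; chromosome 19, 38899700 to 38908893, plus strand) encodes IκBβ. It had 34.4, 39.4 and 23.8 CPM in untreated and 45.7, 35.0 and 39.2 CPM in treated libraries. The groups overlapped, since treated replicate 2 and treated replicate 3 lay below untreated replicate 2. The log2 fold change was 0.30 (SE 0.24; adjusted p by edgeR 0.592), and 0.11 (SE 0.22) without untreated replicate 3.

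Both nuclear IκB genes had positive log2 fold changes, and BCL3 alone of the pair passed the threshold. BCL3 (ENSG00000069399; chromosome 19, 44747705 to 44760044, plus strand) had 19.8, 26.0 and 20.6 CPM in untreated and 68.1, 62.2 and 50.2 CPM in treated libraries. The groups did not overlap, and untreated replicate 3 was not the lowest here. Its log2 fold change of 1.44 (SE 0.21; adjusted p by edgeR 0.00326) moved least of the 6 called members without untreated replicate 3, to 1.39.

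NFKBIZ (ENSG00000144802; chromosome 3, 101827991 to 101861022, plus strand) was the member whose value rested most on single libraries. It had 14, 16 and 64 counts in untreated and 28, 63 and 25 counts in treated libraries, or 3.65, 4.12 and 14.5 against 8.05, 14.2 and 7.10 CPM. Untreated replicate 3, where the other 8 tested members were low, held its highest level, and treated replicate 2 nearly matched it. The log2 fold change was 0.39 (SE 0.54; adjusted p by edgeR 0.80). Without untreated replicate 3 it was 1.32 (SE 0.41; adjusted p by edgeR 0.0569), and without treated replicate 2 it was 0.08.

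**Figure D2:**
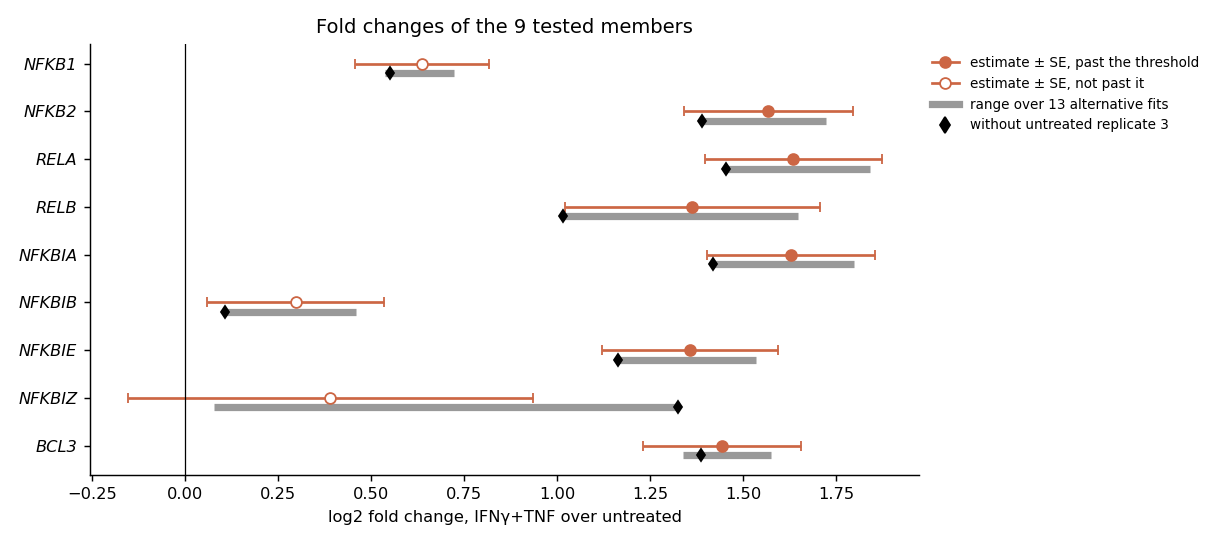
Log2 fold change (IFNγ+TNF over untreated) of the 9 tested members with its SE (circles with horizontal bars, filled where past the threshold), the range over 13 alternative fits (grey bars) and the value without untreated replicate 3 (diamonds). The 6 called members lie between 1.36 and 1.63, and NFKBIZ has the widest range, from 0.08 to 1.32.

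Set among all genes that rose, these changes were below the middle. The 562 genes called higher had a median log2 fold change of 1.83, or 3.55-fold. By size of log2 fold change, RELA ranked 323 and NFKBIA 324 of the 562, and RELB and NFKBIE ranked 389 and 391.

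Levels between members are given on both scales, as CPM and as CPM per kb of exonic length, from all annotated exons of each gene. A direct RNA read stands for 1 molecule whatever its length, so CPM follows the number of molecules read, and the division by length changes the order. The CPM scale was added after the values were seen. Per kb, in untreated cells, NFKBIA had the highest mean level, 28.1 ± 7.54 CPM per kb, followed by RELA with 18.5 ± 4.17 and RELB with 15.1 ± 7.08 (SD, n = 3 each). NFKBIB, NFKBIE, NFKB2, BCL3 and NFKB1 followed in this order, from 14.0 to 6.14 CPM per kb. From NFKBIA down to NFKB1 the range of each gene over the 3 libraries overlapped that of the next. Library by library, however, 5 of these 7 neighbouring pairs kept their order in all 3 libraries, and RELA with RELB and RELB with NFKBIB kept it in 2. NFKBIZ, at 1.26 CPM per kb, lay below NFKB1 in all 3 libraries.

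In CPM, RELA came first in untreated cells with 100.9 CPM and NFKBIA second with 66.5 CPM, in this order in all 3 libraries. RELB, NFKB2, NFKB1, NFKBIB, NFKBIE and BCL3 followed, from 45.5 to 22.1 CPM, and NFKBIZ lay below BCL3 in all 3. From RELA down to BCL3 each range overlapped that of the next gene. NFKBIB was thus in the fourth place per kb and in the sixth by CPM.

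In treated cells the order per kb was NFKBIA with 86.7 ± 5.57, RELA with 57.4 ± 11.7, RELB with 38.8 ± 3.81, NFKBIE with 29.4 ± 3.69 and NFKB2 with 26.9 ± 4.34 CPM per kb (SD, n = 3 each). The ranges of NFKBIA, RELA and RELB did not overlap those of the next gene. NFKBIE and NFKB2 overlapped, as did BCL3 with 19.5 and NFKBIB with 17.2 CPM per kb. In CPM the order was RELA with 313, NFKBIA with 205.5, NFKB2 with 126.6, RELB with 116.9 and NFKBIE with 76.0 CPM, and here NFKB2 and RELB overlapped. NFKBIB, whose change did not pass the test, held the seventh place per kb and the eighth by CPM.

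Within the cytoplasmic inhibitors, NFKBIA made up a larger share in treated cells and NFKBIB a smaller one. NFKBIA held 53.0%, 52.4% and 51.4% of the summed CPM per kb of the 3 inhibitor genes in untreated libraries and 64.2%, 67.1% and 64.0% in treated ones. NFKBIB held 26.0%, 25.9% and 26.8% in untreated and 13.6%, 12.3% and 12.7% in treated libraries. The share of NFKBIE, 21.5% ± 0.39 and 22.04% ± 1.38 (SD, n = 3 each), overlapped between the groups. These shares were nearly equal within a group, even in untreated replicate 3, where all 3 genes were low. By CPM the NFKBIA share was 51.6% ± 0.78 and 64.0% ± 1.80 and the NFKBIB share 25.3% ± 0.46 and 12.4% ± 0.63 (SD, n = 3 each), also without overlap.

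Among the subunits, NFKB1 took a smaller share, with 11.1%, 11.8% and 16.5% of the summed CPM per kb in untreated and 6.53%, 8.33% and 7.04% in treated libraries. By CPM its share was 17.6% ± 3.22 and 9.97% ± 1.32 (SD, n = 3 each), also without overlap. Per kb the shares of RELA, RELB and NFKB2 overlapped between the groups. By CPM that of RELA did not, at 45.8%, 41.5% and 46.04% in untreated and 50.6%, 47.1% and 53.6% in treated libraries. The ratio of NFKB2 to NFKB1, both per kb, was 1.61, 1.54 and 1.24 in untreated and 3.32, 2.47 and 2.64 in treated libraries. The ratio of NFKBIA to RELA per kb did not separate the groups, at 1.51 ± 0.17 in untreated and 1.55 ± 0.30 in treated cells (SD, n = 3 each). The summed inhibitors over the summed subunits gave 1.11 ± 0.07 and 1.01 ± 0.09 per kb and 0.56 ± 0.03 and 0.53 ± 0.05 by CPM (SD, n = 3 each), with overlap on both scales. The size of this ratio therefore depends on the scale. These shares and ratios are descriptions without a test.

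**Figure D3:**
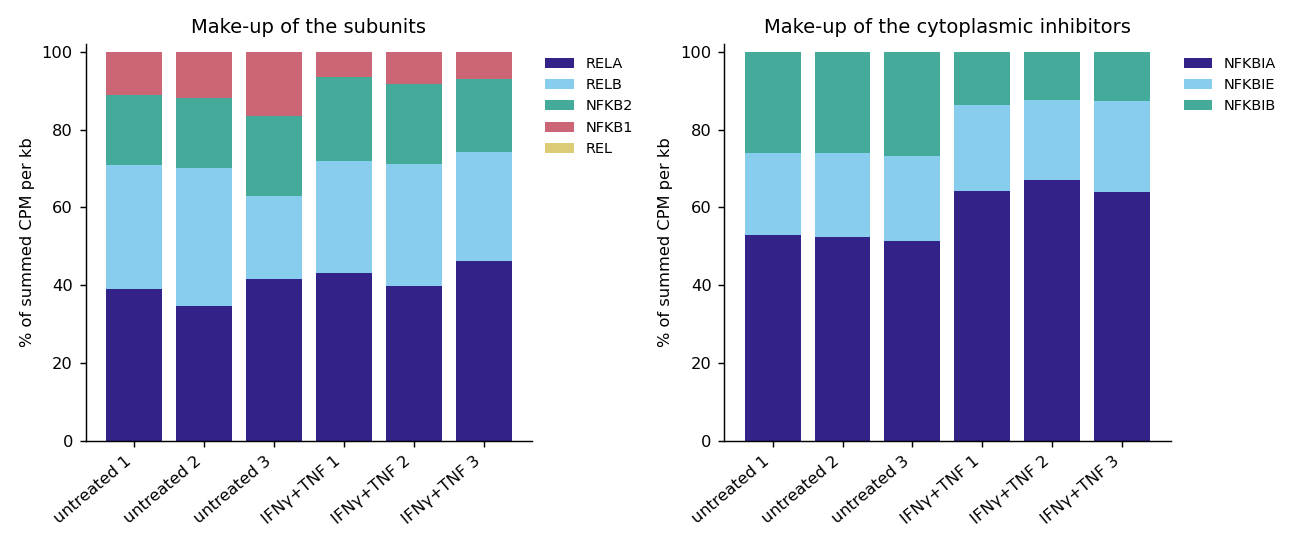
Share of each gene in the summed CPM per kb of exonic length of the 5 subunit genes (left) and the 3 cytoplasmic inhibitor genes (right), 1 bar for each library, in percent. The NFKBIA share lies between 51.4% and 53.0% in untreated and between 64.0% and 67.1% in treated libraries, while REL is too low to be seen.

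In the windows searched, κB matches lay before called members and also before members that did not pass the test. Of the 4 called members with a promoter window, NFKB2 and NFKBIA had a match and RELA and BCL3 had none. NFKB1, NFKBIB and NFKBIZ, which did not pass the test, and REL, which was not tested, all had one. The called members RELB and NFKBIE had no window, and sequence outside the windows was not searched. Whether κB sites have a part in the changes was not tested.

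The machinery that carries the TNF signal to IκB was examined next. The gene lists here and below were chosen with earlier results of these data known. Their counts beside the share of all genes are therefore descriptions and no independent support. Of 21 genes of TNF receptor and IKK signalling, 18 were tested, 3 were higher (against 5.58% of all genes tested) and none lower by edgeR, at an unadjusted p under 0.05, or in DESeq2 or limma voom (median log2 fold change 0.46). TNFRSF1A, the main TNF receptor, went from 78.9 ± 6.66 to 160.7 ± 23.9 CPM (SD, n = 3 each), or by 1.03 on the log2 scale (SE 0.18; adjusted p by edgeR 0.00798). RIPK1, a kinase recruited to that receptor, and RBCK1, a subunit of the linear ubiquitin ligase, rose by 1.11 (SE 0.28) and 0.95 (SE 0.21) on the log2 scale. Their adjusted p by edgeR were 0.0417 and 0.0216, and both rested on single libraries. Neither passed without treated replicate 1 or 3 or without untreated replicate 1 or 2 (adjusted p by edgeR from 0.0569 to 0.171), which left 1 call in the list, and RIPK1 did not pass without treated replicate 2 either (0.102). RNF31, the catalytic subunit of that ligase, had 1 count in all, and exons of ENSG00000259529 on the same strand cover 74.4% of its last 500 exonic bases. As for REL, the counts therefore do not show whether RNF31 was expressed.

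No subunit of IKK passed the threshold. IKBKB, the kinase that marks IκBα, had 9.12, 10.6 and 8.38 CPM in untreated and 14.4, 14.4 and 12.2 CPM in treated libraries, without overlap (log2 fold change 0.55 with SE 0.25; adjusted p by edgeR 0.269). CHUK (IKKα) and IKBKG (NEMO, the regulatory subunit) had values of 0.77 (SE 0.49) and 0.50 (SE 0.33) on the log2 fold change scale. MAP3K14, which encodes NIK, had 13.9 ± 3.48 and 11.8 ± 1.09 CPM (SD, n = 3 each). Its log2 fold change was -0.24 (SE 0.27; adjusted p by edgeR 0.746).

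Among 12 feedback regulators of the pathway, all tested, 8 were higher (against 5.58% of all genes tested) and none lower by edgeR, at an unadjusted p under 0.05, or in the other tools (median log2 fold change 1.31). This list too was chosen with earlier results known, so the count is a description only. TRAF1, an adaptor of TNF receptor complexes, went from 15.2 ± 8.34 to 272.8 ± 42.4 CPM (SD, n = 3 each), or by 4.17 on the log2 scale (SE 0.40; adjusted p by edgeR 0.000265). TNFAIP3, which encodes the ubiquitin-editing enzyme A20, had a log2 fold change of 4.04 (SE 0.30). BIRC3, a ubiquitin ligase that also limits NIK, had 1.04, 3.09 and 1.81 CPM in untreated and 5.75, 27.2 and 11.6 CPM in treated libraries (log2 fold change 2.90 with SE 0.63; adjusted p by edgeR 0.0215). BIRC3 did not pass without treated replicate 2 (edgeR adjusted p 0.0708) or replicate 3 (0.0555), nor in limma voom (0.0643), and the list had 5 calls without either of those 2 libraries. ZC3H12A, an RNase, had a log2 fold change of 2.43. TNIP1, a partner of A20, was the most abundant gene of the list by CPM and rose by 1.37 (SE 0.20).

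Of 23 NF-κB target genes outside the family, 19 were tested, 13 were higher (against 5.58% of all genes tested) and none lower by edgeR, at an unadjusted p under 0.05, or in the other tools. The target list was likewise chosen with earlier results known, so the count is a description only. The median log2 fold change of the 19 genes was 2.57. The largest changes among them belonged to CCL2 (8.07), ICAM1 (5.43), IRF1 (5.29) and SOD2 (4.48), and several of these genes are also targets of interferon signalling. Along with IL32, the most abundant by CPM (log2 fold change 3.12), these 5 genes had larger log2 fold changes than any of the 9 tested family members. CCL2, ICAM1, IRF1 and SOD2 were named for the size of their change, so this does not describe the list as a whole. Of the target genes tested, 6 did not pass, among them IER3 and BCL2L1 with log2 fold changes of 0.39 and 0.14, both chosen after their values were seen.

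**Figure D4:**
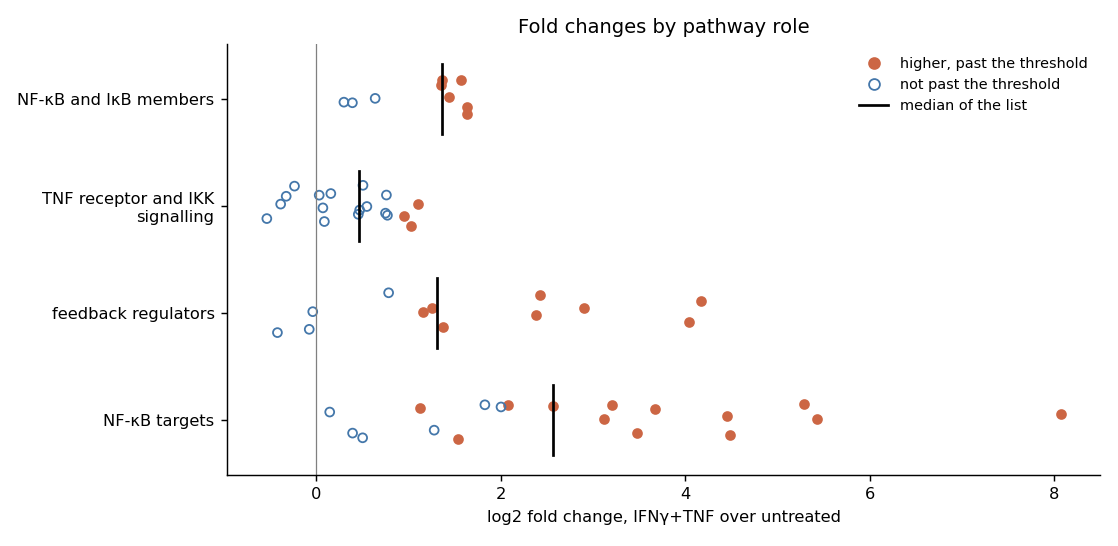
Log2 fold changes (IFNγ+TNF over untreated) of the tested genes by role: 9 family members, 18 TNF receptor and IKK signalling genes, 12 feedback regulators and 19 NF-κB targets, filled where past the threshold, with the median as a vertical line and vertical scatter for legibility only. The called family members lie in a narrow band, whereas the targets reach 8.07.

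The tested genes whose profile was nearest to each called member were found by the root-mean-square difference of log2 CPM over the 6 libraries, each profile centred on its untreated mean. NFKBIA was the third nearest of 10066 genes to NFKB2, and NFKB2 the second nearest to NFKBIA, with a difference of 0.12. OGFR was nearest to both NFKB2 (0.06) and RELA (0.11), and NFKB2 was the third nearest to RELA (0.13). TRIM47 and TNIP1 were nearest to NFKBIE (0.08 and 0.11), ATP10A and TRIM14 to BCL3 (0.07 and 0.10), and CDC42EP4 to NFKBIA (0.11). RELB, with its low untreated replicate 3, was nearest to DSCAML1 (0.09), PLK3 (0.16) and BAK1 (0.17). The libraries fall into 2 groups, so each profile holds a single contrast between them, and a likeness says nothing of shared control.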

How the data were processed

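Direct RNA nanopore libraries of RCC4 cells (3 untreated, 3 treated) were analysed as deposited. The authors deposited raw counts of reads on genes; featureCounts 2.0.1 was run in long-read, strand-specific mode on exons of Ensembl release 105 (GRCh38), per the file headers. The submitters' processing notes list minimap2 2.24, SAMtools 1.16 and featureCounts 2.0.0. Names in the headers carry the word dmso, which the labels do not, so groups came from the sample titles. Symbols came from a gene name table for 61369 of 61541 genes.

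Counts were tested with edgeR 4.0.16 in R 4.3.3 (quasi-likelihood F test, TMM, filterByExpr, group as sole term, Benjamini-Hochberg over 10067 genes, threshold 0.05), after checks on simulated data. SE is the absolute log2 fold change over the square root of F. Alternatives used DESeq2 1.42.0, limma 3.58.1 (voom), other scalings and filters, a replicate block, and each library left out. Same-numbered libraries did not deviate together in every pair (r = 0.651, -0.0037 and 0.374). Differently numbered ones had r from -0.674 to 0.413. This does not settle whether the libraries were paired, and no pairing was assumed. The members, gene lists and naming rule were chosen with earlier results of these data known. All 10 members were named. From each list, the rule took the 4 called genes with the largest change, the 2 with the highest CPM, the IKK genes and MAP3K14, and the 3 nearest profiles of each called member were sought.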

Additional observations from a re-analysis of the deposited data

How the results depend on the processing

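The 6 members called higher were the same genes in 8 of the 13 alternative fits, and no member changed direction in any. Without treated replicate 1, 2 or 3 or untreated replicate 2, RELB was lost and 5 were called. With the replicate block NFKB1 was added, giving 7. Over single libraries left out, the count of members ran from 5 to 6. The genes called over all genes, 819 in the main test, numbered 1328 with no filter beyond 1 count in all, and 1512 with the replicate block, and ran from 455 to 1178 over the fits without 1 library. The TNF receptor and IKK signalling list had 5 genes called higher with the replicate block and from 1 to 3 over the fits without 1 library; the feedback regulators had from 5 to 8. Without 1 library, from 3.42% to 7.16% of all genes were called higher. The cause was not tested. With library totals alone the median over all genes was -0.13 on the log2 scale, and the 6 members were called there too. RIPK1 was not past the threshold with that scaling (edgeR adjusted p 0.104). REL, with 5 counts in all, was too low to test, and NFKBIZ had 14 to 64 counts a library. CPM without division by length, added after the data were seen, moved the ratio of inhibitors to subunits in untreated cells from 1.11 to 0.56 and left the treated NFKBIA share at 64.0% (65.1% per kb). Every setting planned was run.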

Other observations

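NFKBIB, BCL3 and RELB all lie on chromosome 19, and BCL3 ends 241 kb before the start of RELB. The 4 tested genes between this pair, BCAM, NECTIN2, TOMM40 and CLPTM1, were neither higher nor lower in edgeR at an adjusted p under 0.05. Within 100 kb of any of the 10 genes, 39 other genes were tested. None of them was called higher in edgeR and 1 was called lower, C10orf95-AS1 near NFKB2, against 5.58% and 2.55% of all genes tested.

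A further IκB family gene outside the 10, NFKBID, which encodes the nuclear protein IκBNS, was among the feedback regulators called higher and was chosen for mention after its values were seen. It had 6, 6 and 3 counts in untreated and 24, 30 and 22 counts in treated libraries, a log2 fold change of 2.38 (SE 0.41; adjusted p by edgeR 0.00734). In CPM it stayed below 7 in every library.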
